A study of Mus musculus with 2 samples.

Results

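The 9 genes described here encode the interleukin-1 (IL-1) cytokine family and the inflammasome, the protein complex that processes part of that family. They were chosen by symbol and make up 9 of the 55487 genes in the count matrix: the ligands Il1a, Il1b, Il18, Il33 and Il1f6, the receptor antagonist Il1rn, the sensor Nlrp3, the adaptor Pycard and the protease Casp1. The cells were medullary thymic epithelial cells (mTECs), which display proteins of other tissues to developing T cells under the control of the regulator Aire. All mice were wild-type C57BL/6J females aged 4 weeks and received 7 daily intraperitoneal injections, of the polyamine spermidine (15 mg/kg, dissolved in PBS, a saline buffer) or of the buffer. After bead depletion of CD45-bearing cells, the Aire-stage mTEChi gate and the post-Aire mTEClo gate were sorted, tagged with hashtag antibodies and pooled into 1 droplet run. Hashtags HT4 and HT5 marked PBS samples 1 and 2, and HT2 and HT3 marked spermidine samples 1 and 2. The labels do not say that the 2 samples of a treatment came from separate mice, so every p-value measures only the spread between these samples, which may be technical.

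IL-1 alpha and IL-1 beta act on the same receptor, and the product of Il1rn occupies that receptor without signalling. IL-1 beta and IL-18 are made as inactive precursors that caspase-1 cleaves after an activated sensor such as NLRP3 has gathered caspase-1 through the adaptor ASC, the product of Pycard. IL-33 and IL-36 alpha, the product of Il1f6, are alarm signals of barrier epithelium, and mTECs include cells that take on programmes of skin, gut and other epithelia.

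Of 8534 barcodes that passed the quality limits, 4709 carried exactly 1 of the 4 labelled hashtags, between 993 and 1374 per sample, with a median depth per sample of 15736 to 17365 unique molecular identifiers (UMIs, counted transcripts). Clustering without the members and 66 related genes gave 13 classes, named from marker lists: 4513 of the assigned cells fell in 10 mTEC classes and 196 in dendritic-like (74 cells), thymocyte-like (117) and neutrophil-like (5) classes. The keratinocyte-like class also showed many goblet and secretory markers. The neutrophil-like class had no cell in PBS sample 2 and is left out of all comparisons. HT6 and HT7 also carried signal but belong to no labelled sample, and 897 of the 4709 cells became doublets when those hashtags were considered. Immune markers were not absent from the sort: Ptprc, which encodes CD45, was detected in 59 of 74 dendritic-like cells. Epcam, an epithelial surface gene, was detected in 49 of them and in 28 of 117 thymocyte-like cells, and the part of mixed droplets or free RNA in the values below was not tested.

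The number of UMIs behind each gene sets how firmly it can be read. Casp1, Pycard and Il1rn were found throughout the epithelium, with 8755, 9171 and 6959 UMIs in mTEC classes, and Il1f6 had 2107 UMIs, mostly in 1 class. Il1b (983 UMIs), Il18 (424), Il33 (224), Nlrp3 (172) and Il1a (161) rest on few. Immune classes held 67.4% of the Il1b UMIs and 20.3% of those of Nlrp3, although they made up only 196 cells, and 5.66% or less of the UMIs of each other member. Levels below are UMIs of the gene per 1000000 UMIs (CPM) of all cells of a class in a hashed sample, given as mean ± SD over the 4 samples. Classes are called apart here when their 4 values do not overlap, as a description with no test.

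**Figure D1:**
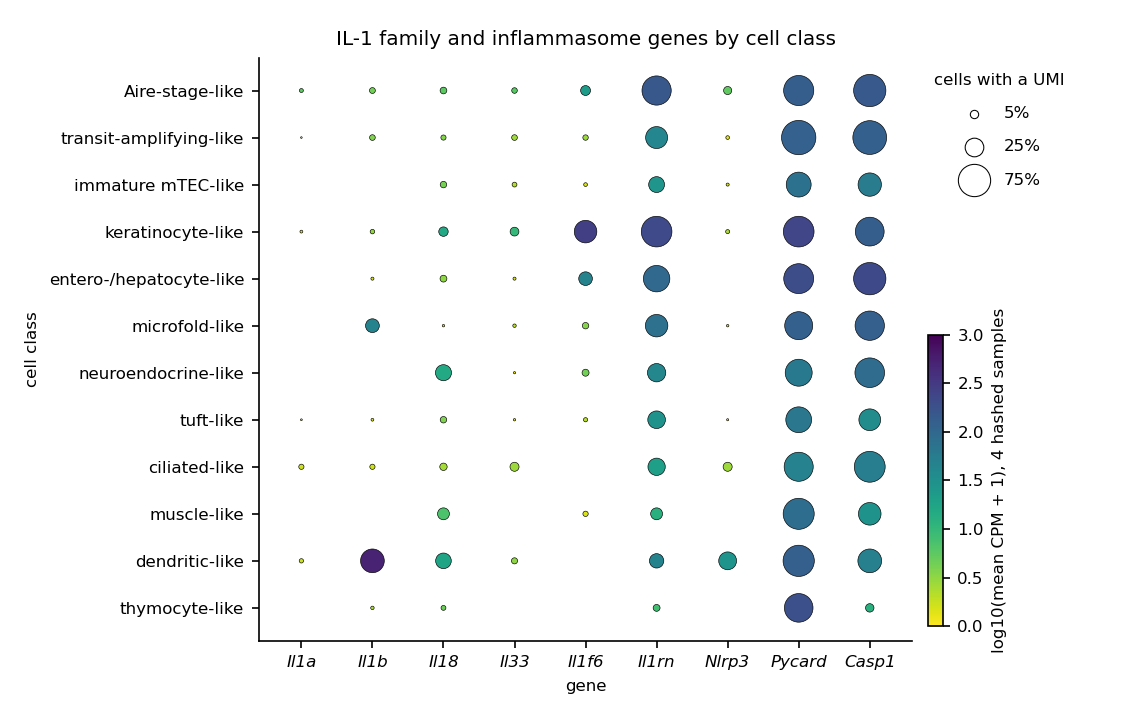
Dot plot of the 9 genes (columns) in 12 cell classes (rows). Dot area gives the percentage of assigned cells with at least 1 UMI and colour gives log10 of the mean CPM plus 1 over 4 hashed samples. Il1b is highest in the dendritic-like class, Il1f6 in the keratinocyte-like class, and Il1rn, Pycard and Casp1 fill most mTEC rows.

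Among the ligands, Il1b and Il1a lie close together on mouse chromosome 2 (GRCm38, GENCODE M21), both on the minus strand. Il1b spans chr2:129364570-129371139 and Il1a spans chr2:129299610-129309972. The 150 bases before each RefSeq transcription start are shown because these neighbouring genes had different class patterns, described next. Capitals mark every match, on either strand, to the TATA box (TATAAA), the AP-1 site (TGANTCA), the core of the PU.1 site (GAGGAA) or a CA repeat (CACACACA). The sequences are read on the minus strand of GRCm38.p6, at chr2:129309973-129310122 for Il1a and chr2:129371140-129371289 for Il1b.
Il1a: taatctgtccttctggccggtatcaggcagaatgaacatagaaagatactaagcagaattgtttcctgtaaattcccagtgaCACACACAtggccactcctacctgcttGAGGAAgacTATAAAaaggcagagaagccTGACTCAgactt
Il1b: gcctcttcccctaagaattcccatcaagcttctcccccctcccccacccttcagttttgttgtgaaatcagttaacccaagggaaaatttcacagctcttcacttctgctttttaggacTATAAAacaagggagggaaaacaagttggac
Both windows hold a TATA box, with its first base at -32 in Il1a and at -31 in Il1b, counted back from -1 at the base before the start. Over 250 bases, 12.4% of 32851 RefSeq promoter windows hold TATAAA, 6.75% hold TGANTCA, 23.3% hold GAGGAA and 3.55% hold CACACACA. Il1a holds all 4 within 68 bases of its start, and Il1b holds the TATA box alone. An NF-kB consensus, present in 7.25% of windows, was searched too and matched neither. The matches are a description of these letters and show no binding.

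Il1b, a cytokine made mainly by myeloid cells, stood highest in dendritic-like cells. Its level there was 352 and 367 CPM with PBS and 328 and 1040 CPM with spermidine, with a mean of 522 ± 346 CPM (SD, n = 4). A UMI was seen in 30 of 74 dendritic-like cells (40.5%, exact 95% interval 29.3 to 52.6%), at 8.81 UMIs per cell over the class. These cells carried Tyrobp and Ptprc in 30 of 30 cases, as myeloid cells do, and Epcam in 27 of 30. Of the 44 dendritic-like cells without Il1b, 39 carried Tyrobp, 29 Ptprc and 22 Epcam. Median depth was 20980 UMIs in the cells with Il1b and 12110 in those without. Il1b was also 1 of the 10 genes that led this cluster by fold, although it had been left out of the clustering.

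Microfold-like mTECs, which resemble the antigen-sampling cells of gut epithelium, came second for Il1b. Their levels were 64.7 and 29.8 CPM with PBS and 27.5 and 53.9 CPM with spermidine, a mean of 44.0 ± 18.2 CPM (SD, n = 4). This class stood apart from the dendritic-like class above it and from all classes below it. Il1b was seen in 32 of 234 microfold-like cells (13.7%, exact 95% interval 9.54 to 18.8%), against 7 of 1261 tuft-like cells (0.555%), a class with a similar median depth (12760 against 13032 UMIs). After each cell was thinned to 2000 UMIs, 6.58% of microfold-like and 0.161% of tuft-like cells kept an Il1b UMI. Of the 32 cells, 32 carried Epcam, 31 carried the microfold chemokine gene Ccl20 and 24 carried the microfold marker Gp2, against 129 with Gp2 among the 202 microfold-like cells without Il1b. Of the immune genes, Fcer1g was seen in 5 of the 32 cells with Il1b and 20 of the 202 without, Itgax in 2 and 2, Ptprc in 2 and 10, and Tyrobp in 1 and 4, the last at 23.8 and 1.35 CPM over the pooled cells. Summed levels of 10 dendritic markers were 210 to 251 CPM in microfold-like samples and 1707 to 2487 CPM in dendritic-like samples, with 5 to 7 of the 10 detected in each microfold-like sample and Clec9a and Xcr1 at 0 in all 4. Those of 12 myeloid markers were 1632 to 2100 CPM and 15760 to 25970 CPM, with 10 to 12 detected and Tyrobp at 0 in both microfold-like spermidine samples. Those of 9 macrophage markers were 479 to 1029 CPM in microfold-like and 336 to 2360 CPM in dendritic-like samples, which overlapped, with 4 to 8 detected and Fcgr3 at 0 in all 4 microfold-like samples. The part of such cells or their RNA in the microfold-like Il1b level was not tested. Cells with Il1b were deeper than those without (median 19240 against 10970 UMIs).

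All other classes averaged 3.37 CPM of Il1b or less. No Il1b UMI was seen in 298 immature mTEC-like, 285 neuroendocrine-like or 49 muscle-like cells, which allows shares of up to 1.007%, 1.05% and 6.12%. Among thymocyte-like cells, which should lack Il1b, 1 of 117 had a UMI. In the Aire-stage-like class, 33 of 1328 cells (2.48%) had one, and 28 of those 33 carried Aire, against 1084 of the 1295 without Il1b. Ptprc was seen in 3 of the 33 and 54 of the 1295, Itgax in 1 and 13, Tyrobp in 2 and 102, and Fcer1g in 14 and 496. The single neutrophil-like cell of PBS sample 1 held 10 Il1b UMIs, and the other 4 neutrophil-like cells held none. Il1bos, which overlaps Il1b on the other strand, had 43 UMIs in all, 1 of them in dendritic-like cells and 20 in microfold-like cells.

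Il1a had a different distribution and rested on few cells. Aire-stage-like cells held 152 of its 161 UMIs (94.4%), in 15 cells, and 149 of the 152 came from the Aire-stage cluster led by Car10 rather than from the one led by Klk1b11. In the Aire-stage-like class the level was 0.982 and 0.751 CPM with PBS and 11.2 and 5.46 CPM with spermidine. Over all classes, the 5 cells with the most Il1a held 70.8% of its UMIs. Of the 15 Aire-stage-like cells, 13 carried Aire and 14 Epcam, against 1099 and 1218 of the 1313 cells of the class without Il1a. Of the immune genes, Tyrobp was seen in 4 of the 15 and 100 of the 1313, Fcer1g in 8 and 502, Itgax in 2 and 12, and Ptprc in 0 and 57. Il1a overlaps Gm14023, a gene on the other strand with 96 UMIs in Aire-stage-like cells, and strand handling in the counting is not given in the sources used here. Only 4 Aire-stage-like cells had UMIs of both.

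**Figure D2:**
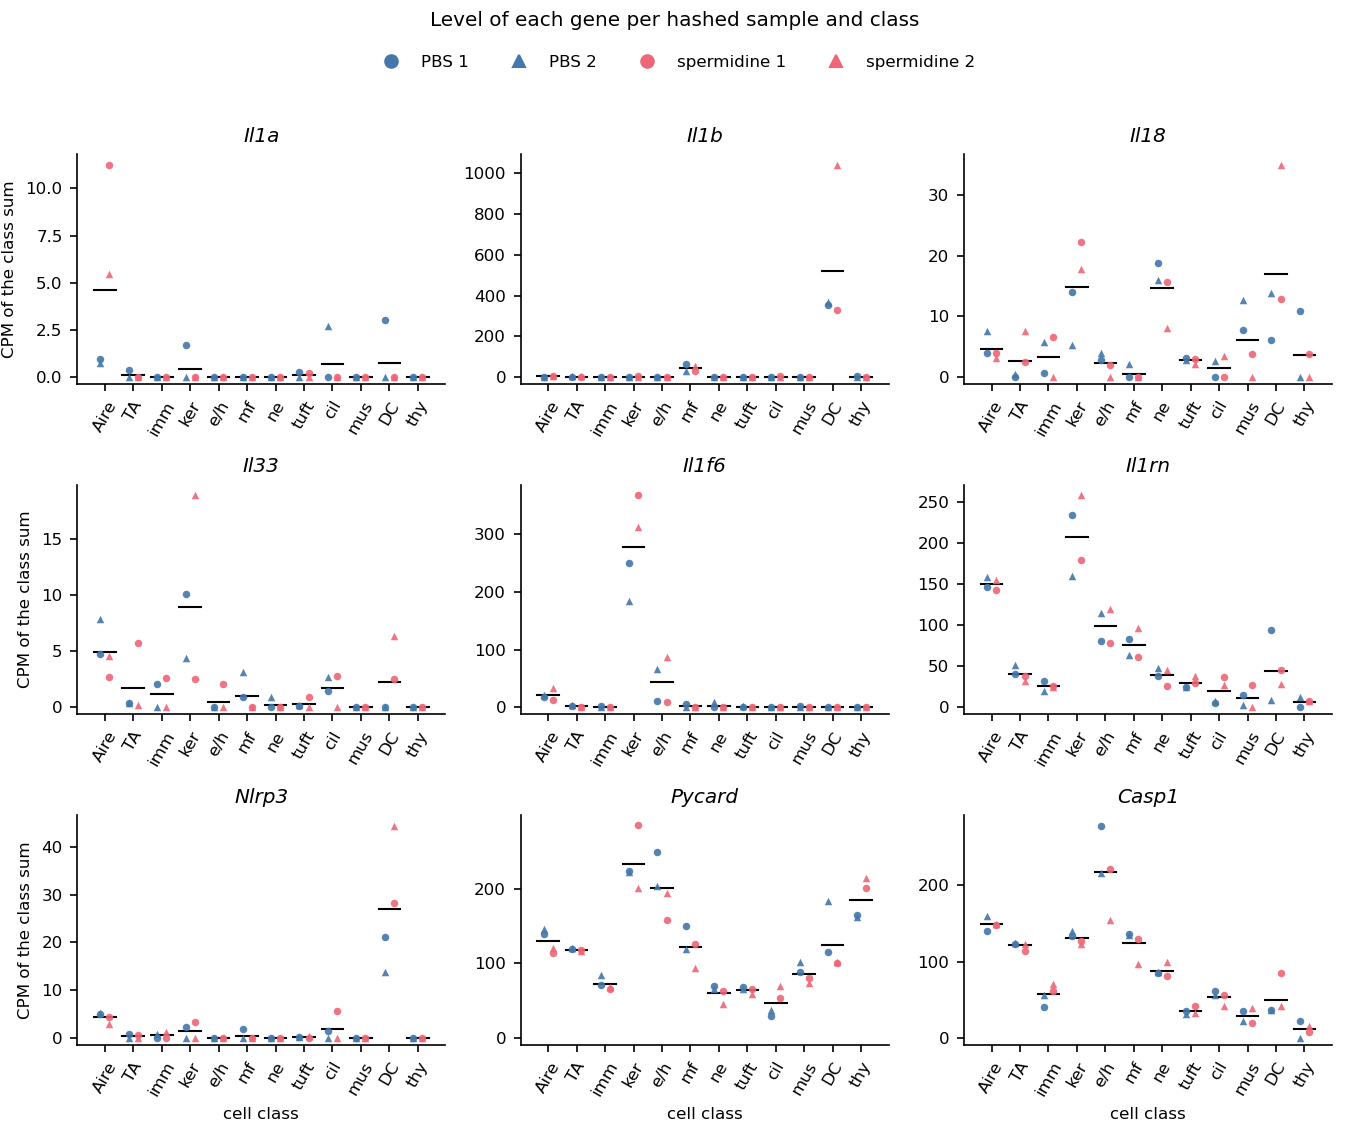
Level of each gene in CPM (linear axes, 1 panel per gene) in 12 classes, with 1 point per hashed sample (blue PBS, red spermidine, circles replicate 1, triangles replicate 2) and a black line at the mean of 4. Class names are shortened: Aire, Aire-stage-like; TA, transit-amplifying-like; imm, immature mTEC-like; ker, keratinocyte-like; e/h, enterocyte- or hepatocyte-like; mf, microfold-like; ne, neuroendocrine-like; cil, ciliated-like; mus, muscle-like; DC, dendritic-like; thy, thymocyte-like. Il1b in dendritic-like cells runs from 328 to 1040 CPM and Il1f6 in keratinocyte-like cells from 184 to 368 CPM.

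Il1f6 was highest in keratinocyte-like mTECs, which held 1387 of its 2107 UMIs. It lies at chr2:24215418-24225702 on the plus strand. These cells had 250 and 184 CPM with PBS and 368 and 314 CPM with spermidine, a mean of 279 ± 79.4 CPM (SD, n = 4), apart from every other class. The enterocyte- or hepatocyte-like class followed at 44.0 ± 39.2 CPM and the Aire-stage-like class at 21.8 ± 8.61 CPM, and these 2 overlapped. Il1f6 was seen in 125 of 342 keratinocyte-like cells (36.5%, exact 95% interval 31.4 to 41.9%), and 94 of those 125 carried Krt10, a keratin of differentiating epidermis, against 94 of 217 cells without Il1f6. No Il1f6 UMI appeared in 117 thymocyte-like or 74 dendritic-like cells, which allows a share of up to 2.56% and 4.05%. Median depth was 16660 UMIs in the keratinocyte-like cells with Il1f6 and 10610 in those without. Il1f5, which encodes the antagonist of the same IL-36 receptor, was likewise highest in this class, at 171 CPM over the pooled cells and in 40.4% of them.

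Il18 had no single leading class. Dendritic-like (16.9 ± 12.5 CPM), keratinocyte-like (14.8 ± 7.22 CPM) and neuroendocrine-like cells (14.6 ± 4.58 CPM) overlapped (SD, n = 4). A UMI was seen in 53 of 285 neuroendocrine-like cells (18.6%, exact 95% interval 14.2 to 23.6%) and in 22 of 342 keratinocyte-like cells (6.43%), at median depths of 16615 and 12834 UMIs. After thinning, the shares were 3.52% and 2.13%. Since the CPM values do not follow these shares, no order is read from them. The neuroendocrine-like levels were 18.8 and 15.9 CPM with PBS and 15.6 and 8.06 CPM with spermidine. In keratinocyte-like cells of spermidine sample 1, 1 cell held 80.8% of the Il18 UMIs. The tuft-like cluster led by Rgs21 showed Il18 in 26 of 281 cells, against 6 of 505 and 6 of 475 in the other 2 tuft-like clusters. Median depth per sample was 16498 to 17410 UMIs in that cluster, against 9297 to 13543 and 11140 to 13800 in the other 2. The part of depth in these shares was not tested. Il18 levels in the Rgs21-led cluster were 5.85 and 11.3 CPM with PBS and 6.33 and 2.16 CPM with spermidine. Il18 spans chr9:50554827-50581840 and overlaps Bco2 and Tex12 on the other strand, which had 74 and 2 UMIs in all classes.

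Il33 (chr19:29925114-29960718, plus strand) had no class above a mean of 8.96 CPM. It averaged 8.96 ± 7.32 CPM in keratinocyte-like and 4.96 ± 2.15 CPM in Aire-stage-like cells (SD, n = 4), and the 2 classes overlapped. In the Aire-stage-like class, 110 of 121 Il33 UMIs came from the cluster led by Car10. In that cluster the levels were 10.0 and 18.5 CPM with PBS and 3.67 and 7.01 CPM with spermidine, and 1 cell held 66.7% of the UMIs of PBS sample 2.

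Il1rn, the antagonist gene (chr2:24336853-24351494, plus strand), was detected in each of the 12 classes. Its promoter and that of Casp1 are shown because these 2 genes had the most alike class patterns among the members, with a Pearson correlation of 0.87 for log2(CPM + 1) over 12 classes that share 4 libraries. The windows lie on the plus strand of GRCm38.p6 at chr2:24336710-24336859 for Il1rn, whose first of 3 RefSeq starts is used, and at chr9:5298367-5298516 for Casp1, with capitals as above.
Il1rn: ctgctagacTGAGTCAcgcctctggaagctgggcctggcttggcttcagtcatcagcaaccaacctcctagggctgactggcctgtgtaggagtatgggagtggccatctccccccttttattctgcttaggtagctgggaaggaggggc
Casp1: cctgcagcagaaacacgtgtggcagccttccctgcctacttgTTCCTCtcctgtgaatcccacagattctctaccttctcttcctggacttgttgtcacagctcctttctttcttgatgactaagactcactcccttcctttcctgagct
Il1rn holds an AP-1 match with its first base at -141, and Casp1 holds a PU.1 core on the other strand with its first base at -108. The 2 windows share none of the 5 motifs searched.

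Keratinocyte-like cells had the highest Il1rn level, at 234 and 161 CPM with PBS and 180 and 258 CPM with spermidine (208 ± 45.7, SD, n = 4). Aire-stage-like cells followed at 147, 159, 143 and 155 CPM (151 ± 7.28), a narrow range apart from the classes on both sides. The enterocyte- or hepatocyte-like class (98.8 ± 22.2 CPM) and the microfold-like class (76.5 ± 16.9 CPM) came next and overlapped. Tuft-like cells stood at 29.7 ± 6.21 CPM. Il1rn was seen in 817 of 1328 Aire-stage-like cells (61.5%) and in 4 of 117 thymocyte-like cells (3.42%), whose median depths were 19960 and 5745 UMIs. After thinning, the shares were 21.9% and 0.862%. Of the 33 Aire-stage-like cells with Il1b, 23 also had Il1rn, and of the 30 dendritic-like cells with Il1b, 6 did. In keratinocyte-like cells, 112 of the 125 cells with Il1f6 also had Il1rn, against 231 of all 342.

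The inflammasome genes did not share 1 pattern. Casp1, the protease (chr9:5298517-5307265), was highest in enterocyte- or hepatocyte-like cells, at 278 and 216 CPM with PBS and 222 and 155 CPM with spermidine (218 ± 50.2, SD, n = 4). Aire-stage-like cells had 150 ± 8.30 CPM, overlapping that class and apart from keratinocyte-like cells (131 ± 7.27 CPM) below. Tuft-like cells had 31.1 to 42.2 CPM and thymocyte-like cells 11.4 ± 9.63 CPM. Casp1 was seen in 74.9% of Aire-stage-like, 82.2% of transit-amplifying-like and 34.0% of tuft-like cells, and in 5.13% of thymocyte-like cells. Median depths in these classes were 19960, 28272, 12760 and 5745 UMIs in that order. Thinned as above, the share per sample was 22.6 to 28.4% in Aire-stage-like and 14.5 to 18.0% in transit-amplifying-like cells. The order of these classes was thus reversed by thinning. Thinned shares were 4.01 to 6.75% in tuft-like and 0 to 3.85% in thymocyte-like cells.

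Pycard, the adaptor (chr7:127989708-127993867, on the minus strand), was present in each of the 12 classes. It ranged from 233 ± 36.5 CPM in keratinocyte-like cells to 47.4 ± 17.5 CPM in ciliated-like cells (SD, n = 4). Unlike Casp1 and Il1rn, it was high in thymocyte-like cells, at 185 ± 26.1 CPM and in 69 of 117 cells, where Casp1 joined it in 2 of the 69. In Aire-stage-like cells, 725 of the 869 cells with Pycard also had Casp1, and in tuft-like cells 277 of 604. Over 12 classes, the Pearson correlation of Pycard with Casp1 was 0.17. Gm45205, which overlaps Pycard on the other strand, had 8 UMIs.

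Nlrp3, the sensor (chr11:59541568-59566956), had its highest level in dendritic-like cells, while Aire-stage-like cells, a far larger class, held 113 of its 172 UMIs (65.7%) and dendritic-like cells 35. Dendritic-like cells had 21.2 and 13.8 CPM with PBS and 28.2 and 44.4 CPM with spermidine (26.9 ± 13.1, SD, n = 4), apart from Aire-stage-like cells at 4.34 ± 1.08 CPM. It was seen in 17 of 74 dendritic-like and 63 of 1328 Aire-stage-like cells. Neuroendocrine-like, enterocyte- or hepatocyte-like, thymocyte-like and muscle-like classes had no UMI, which allows shares of up to 1.05%, 2.01%, 2.56% and 6.12% of cells. Transcripts of Nlrp3, Pycard and Casp1 were seen together in 8 of 74 dendritic-like cells (10.8%), in 39 of 1328 Aire-stage-like cells (2.94%) and in 1 of 1261 tuft-like cells. Over 12 classes, Nlrp3 correlated with Il1b at 0.78, although microfold-like cells, second for Il1b, held only 2 Nlrp3 UMIs. Of the cells with Il1b, 12 of 30 dendritic-like, 5 of 33 Aire-stage-like and 1 of 32 microfold-like cells also had Nlrp3.

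Between the 2 Aire-stage clusters, Casp1, Il1rn and Pycard were higher in the one led by Klk1b11 in every sample. Casp1 was 174 to 203 CPM in the cluster led by Klk1b11 and at most 114 CPM in that led by Car10. Il1rn was 169 to 203 against 100 to 145 CPM, and Pycard 152 to 194 against 78.0 to 122 CPM. The members were not used to cluster the cells, but clusters come from the same cells, so these are descriptions with no test.

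Of the 18897 genes with at least 100 UMIs, the genes with class patterns closest to each member were named by the highest Pearson correlation over the 12 classes. They were Siglecg (0.977), Cd300c2 (0.970) and Wdr86 (0.917) for Il1b, and 7530428D23Rik (0.984), Klk6 (0.980) and Gm19510 (0.978) for Il1f6. Il1rn was nearest to Tbkbp1 (0.956), Col20a1 (0.942) and Clptm1 (0.941), and Casp1 to Adtrp (0.957), Fzd5 (0.956) and then Praf2. Nlrp3 was nearest to Ptpro (0.975), Gsg1 (0.970) and Mcpt8 (0.966). Il18 was nearest to Smim14 (0.907), Ttc39b (0.893) and B3gnt8 (0.855), and Pycard to Gltp (0.817), Rhof (0.802) and Dera (0.797). Il1a and Il33, with few cells, were nearest to Tpsb2 (0.973), Nudt12os (0.972) and Gm5087 (0.971), and to Gm29292 (0.952), Slurp2 (0.938) and Gm6916 (0.935). The 12 points share the same 4 samples, and the values are a description only.

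The rest of the pathway, a list of 66 genes in 7 roles, had UMIs for every gene. The gene with the most UMIs in each role, with pooled CPM, was Il18r1 among receptors (321 CPM in ciliated-like cells, its highest class, and in 96.1% of them), Nfkb1 among signalling genes (281 CPM in dendritic-like cells) and Nfkbia, an inhibitor of NF-kB, among response genes (1612 CPM in Aire-stage-like cells). Aim2, a sensor of cytosolic DNA, led the other sensors (74.0 CPM), Txnip the inflammasome regulators (438 CPM) and Casp4, the caspase of the non-canonical inflammasome, the caspases and gasdermins (264 CPM), each highest in the enterocyte- or hepatocyte-like class. The receptors of the member ligands, named here after their values were seen, were spread over mTEC classes. Il1r1, the signalling IL-1 receptor, was highest in neuroendocrine-like cells (167 CPM, 68.8% of cells). Il1r2, the decoy receptor, reached 112 CPM in dendritic-like and 51.9 CPM in transit-amplifying-like cells. Il1rl2, the IL-36 receptor, stood at 116 CPM in neuroendocrine-like and 105 CPM in keratinocyte-like cells, the class that held Il1f6. Il18rap, the second chain of the IL-18 receptor, had 79 UMIs in all.

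The comparison of spermidine with PBS asks, per the design text, what the injections do to mTEC transcripts. UMIs were summed per hashed sample within each class with at least 10 cells in every sample, and over all mTEC classes, and fitted with edgeR's quasi-likelihood test with Benjamini-Hochberg adjustment over all genes. No member passed an adjusted p of 0.05 in any of the 10 fits. Of 51 member tests, 6 had an unadjusted p under 0.05, beside 8.42% of 121814 tests over all genes. Few genes of any kind passed: 0% of 18544 genes in Aire-stage-like cells, 0.0144% in tuft-like cells, 0% in transit-amplifying-like and keratinocyte-like cells, 0.00995% in immature mTEC-like cells, 0.00888% in neuroendocrine-like cells, 0% in microfold-like cells, 0.0266% in enterocyte- or hepatocyte-like cells, 0% in dendritic-like cells and 0% over all mTEC classes. DESeq2 called 1 member, Il1a over all mTEC classes (adjusted p = 0.00453), and 952 genes over the 10 fits. In these fits the sums reflect a class as sorted. Fewer cells with a transcript and less transcript per cell thus cannot be told apart, and counts per cell are therefore given too. Class shares also differed between the treatments. Aire-stage-like cells made up 19.9% and 27.3% of the assigned cells with PBS and 33.4% and 32.97% with spermidine. Keratinocyte-like cells made up 9.06% and 7.75% with PBS and 5.97% and 6.16% with spermidine. The part of these shares in the values over all mTEC classes was not tested.

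In Aire-stage-like cells all 9 members were tested, with 3 log2 fold changes above 0 and 6 below and a median of -0.04, beside a median of -0.0015 over all genes. The make-up of this class differed between samples: the Car10-led cluster gave 101 of 266 and 106 of 271 of its cells in the HT4 and HT5 (PBS) samples, against 246 of 459 and 152 of 332 in the HT2 and HT3 (spermidine) samples, and the rest came from the Klk1b11-led cluster. The part of this shift in the values below was not tested, except where levels within each cluster are given. The largest was that of Il1a, a log2 fold change of 3.25 (SE 0.56, adjusted p = 0.661). It rested on 2 of 266 and 1 of 271 cells in the PBS samples and 9 of 459 and 3 of 332 cells in the spermidine samples. UMIs per cell were 0.0188 and 0.0148 in PBS and 0.235 and 0.105 in spermidine. Within the Car10-led cluster the levels were 2.18 and 1.76 CPM with PBS and 18.9 and 9.35 CPM with spermidine. The groups did not overlap, but in spermidine sample 2 a single cell gave 91.4% of the UMIs. With each cell's count capped at 10, the log2 fold change in this class was 2.37. Over all mTEC classes the uncapped value was 3.05 (SE 0.55, adjusted p = 0.130).

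**Figure D3:**
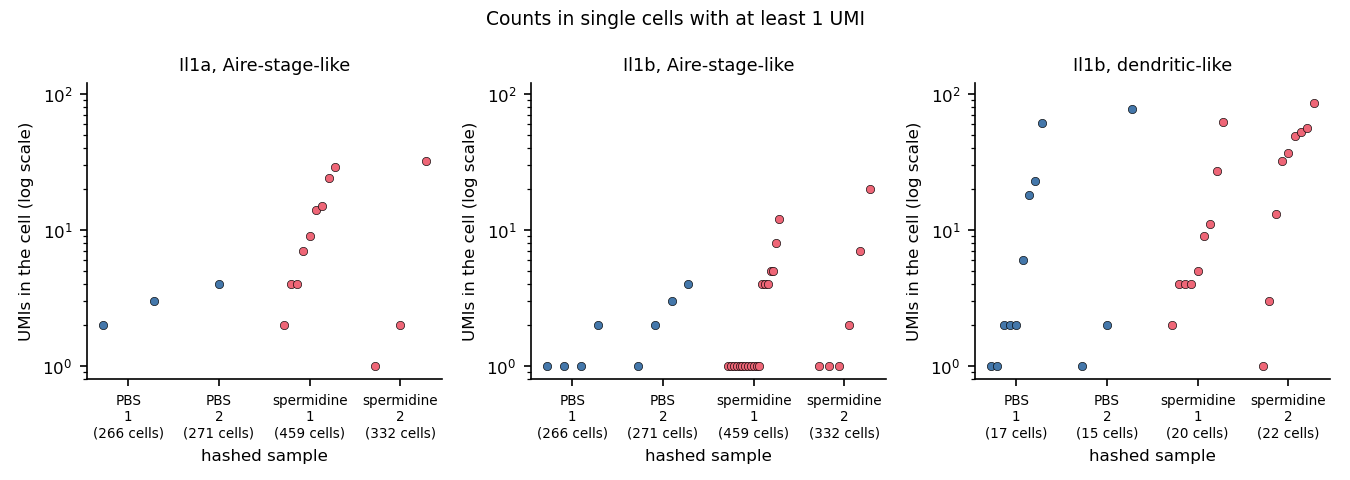
UMIs of Il1a in Aire-stage-like cells (left), Il1b in Aire-stage-like cells (middle) and Il1b in dendritic-like cells (right), on log axes, with 1 point per cell that has at least 1 UMI, by hashed sample. Class size is under each sample. The Il1a counts of spermidine sample 2 are led by 1 cell with 32 of 35 UMIs, and those of PBS sample 2 come from 1 cell with 4.

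Il1b in Aire-stage-like cells had 5 and 10 UMIs with PBS and 54 and 32 with spermidine, or 0.982, 1.88, 5.62 and 4.99 CPM. The groups did not overlap, and the log2 fold change was 1.87 (SE 0.49, adjusted p = 0.699). UMIs were found in 4, 4, 19 and 6 cells in that order, and 1 cell held 62.5% of those in spermidine sample 2. Over these samples, summed levels of 6 neutrophil markers were 115 and 63.6 CPM in PBS and 115 and 139 CPM in spermidine, all 6 detected. Summed levels of 12 myeloid markers were 2274 and 2112 CPM in PBS and 2523 and 2052 CPM in spermidine, and those of 6 erythroid markers were 169 and 140 CPM in PBS and 351 and 791 CPM in spermidine. Their part in the Il1b difference was not tested.

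Pycard in Aire-stage-like cells was 140 and 145 CPM with PBS and 114 and 121 CPM with spermidine, without overlap, and the log2 fold change was -0.28 (SE 0.087, adjusted p = 0.743). Nlrp3 (4.91, 5.26, 4.37 and 2.81 CPM) and Il33 (4.71, 7.89, 2.71 and 4.53 CPM), in the same order of samples, were also lower in both spermidine samples, with log2 fold changes of -0.49 (SE 0.41, adjusted p = 0.924) and -0.82 (SE 0.47, adjusted p = 0.877). For Il33, 1 cell held 28 of the UMIs of PBS sample 2, and the difference without that cell was not tested. The Car10-led cluster had the lower levels of Pycard in every sample. Within each of the 2 clusters the Pycard levels of the groups overlapped. Il1rn, Casp1, Il1f6 and Il18 overlapped between the groups.

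In Aire-stage-like cells, 5 of 9 members did not overlap between the groups, beside 35.5% of all genes tested. In tuft-like cells it was 1 of 4 members beside 40.5% of genes, and over all mTEC classes 4 of 9 members beside 51.8% of genes. The counts were 3 of 6 members beside 36.9% of genes in keratinocyte-like, 2 of 3 beside 35.1% in immature mTEC-like, 2 of 4 beside 32.5% in neuroendocrine-like and 2 of 4 beside 30.4% in dendritic-like cells. They were 1 of 4 in each of the transit-amplifying-like, microfold-like and enterocyte- or hepatocyte-like classes, beside 35.5%, 31.6% and 34.0% of genes. With so few members tested, nothing particular to them is read from these counts.

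**Figure D4:**
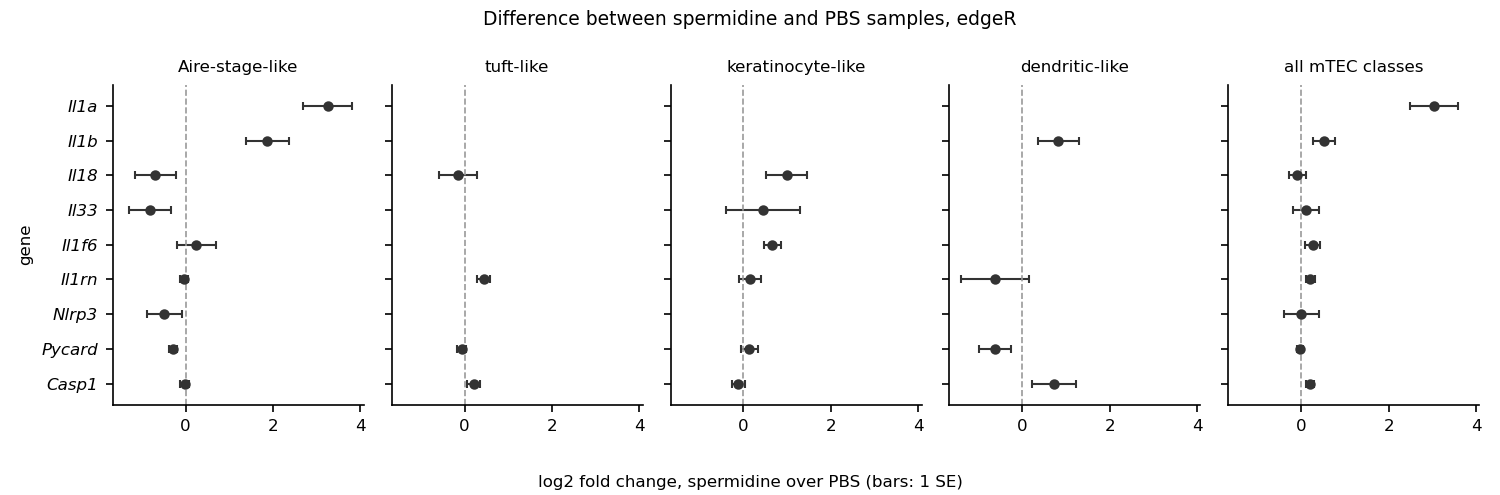
Log2 fold change of spermidine over PBS samples for each member tested, in 4 classes and over all mTEC classes, from edgeR, with bars of 1 SE (2 samples per group). Members that failed the filter on low counts in a class have no point, and no point passed an adjusted p of 0.05.

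In tuft-like cells 4 members passed the filter on low counts. Il1rn was 25.2 and 25.4 CPM with PBS and 29.8 and 38.5 CPM with spermidine, without overlap, with a log2 fold change of 0.44 (SE 0.15, adjusted p = 0.363). It was seen in 22.8% and 22.5% of cells in PBS and 21.2% and 22.9% in spermidine, and after thinning to 2000 UMIs in 3.82% and 3.65% against 5.47% and 7.91%. The groups thus overlapped before thinning and not after it, on 17, 10, 17 and 17 cells with a UMI. In the full counts, 1 cell held 22.95% of the UMIs in spermidine sample 2. An interaction of class and treatment compared the tuft-like with the Aire-stage-like effect and called 0 of 9 members (1 with an unadjusted p under 0.05, Il1rn) and 0% of 19158 genes (1166 genes with an unadjusted p under 0.05). For Il1rn that difference was 0.46 on the log2 scale (SE 0.17, adjusted p = 0.803).

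In keratinocyte-like cells, Il1f6 per cell was 3.69 and 2.74 UMIs in PBS and 5.24 and 4.84 UMIs in spermidine, without overlap, with a log2 fold change of 0.66 (SE 0.20, adjusted p = 0.548). With each cell's count capped at 10, the log2 fold change was 0.05. The share of cells with Il1f6 was 38.8% and 35.1% in PBS and 36.6% and 33.9% in spermidine. Il18 had a log2 fold change of 0.99 (SE 0.48, adjusted p = 0.769), from 25 and 6 UMIs in PBS and 26 and 17 UMIs in spermidine. A single cell held 21 of the 26 in spermidine sample 1, and the difference without that cell was not tested. Without PBS sample 1 the log2 fold change of Il18 was 1.93, and without PBS sample 2 it was 0.52.

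In dendritic-like cells, Il1b per cell was 6.82 and 5.33 UMIs in PBS and 6.40 and 14.9 UMIs in spermidine, so the groups overlapped, and the log2 fold change was 0.82 (SE 0.46, adjusted p = 0.999). With between 15 and 22 cells per sample, single cells weighed heavily: 1 cell held 96.2% of the Il1b UMIs of PBS sample 2. Without spermidine sample 1 the log2 fold change of Il1b in this class was 1.42, and without spermidine sample 2 it turned to -0.19. Casp1 had a log2 fold change of 0.73 (SE 0.50) and Pycard of -0.63 (SE 0.36), each with an adjusted p of 0.999. In microfold-like cells, Il1b had a log2 fold change of -0.27 (SE 0.44, adjusted p = 0.998).

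Of the pathway list, 0 genes were called in any of the 10 edgeR fits, among 60 tested in Aire-stage-like cells and 64 over all mTEC classes, and 42 of 462 tests had an unadjusted p under 0.05, beside the 8.42% of all tests given above. DESeq2 called 3 of the list, all over all mTEC classes. Over 8 of the 11 alternative settings, 18 of the 66 genes were called at least once, most often with no filter on low counts (26 of 43 calls). The values that follow are over all mTEC classes. Shares of Aire-stage-like and keratinocyte-like cells differed between the treatments as given above, and the part of that shift was not tested. Txnip had a log2 fold change of -0.39 over all mTEC classes (SE 0.068, adjusted p = 0.128) and Il1f5 one of -0.62 (SE 0.19, adjusted p = 0.209). Nfkbia stood at 0.38 (SE 0.13, adjusted p = 0.222), Casp4 at 0.27 (SE 0.089, adjusted p = 0.215), Nfkb1 at 0.15 (SE 0.061, adjusted p = 0.290), Il18r1 at 0.13 (SE 0.091, adjusted p = 0.519) and Aim2 at 0.09 (SE 0.12, adjusted p = 0.745).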

How the data were processed

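Transcripts and hashtag antibodies were measured in 1 pooled 10x 3′ v3 droplet run. The authors deposited a matrix of raw UMI counts per gene and barcode, counted by Cell Ranger (version 7.1.0, per the file headers) against mm10, per the submitters' processing notes. Barcodes with under 1000 UMIs, under 500 genes or over 15% mitochondrial UMIs were left out, and hashtags were called with Seurat 5.3.0 (HTODemux, quantile 0.99). This gave 4709 cells of 1 sample, 1027 doublets (left out) and 2798 negatives. No caller of doublets by expression was run. Cells were clustered with scanpy 1.11.5 (2000 variable genes, 30 components, Leiden resolution 1) and named from marker lists, so class names were rebuilt here.

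Counts were summed per sample and class and tested with edgeR 4.0.16 (quasi-likelihood, TMM, filterByExpr, Benjamini-Hochberg adjustment) with 2 samples per group, and with DESeq2 1.42.0 as an alternative. Total UMIs per sample were 17668782 to 25673749. Shares carry exact (Clopper-Pearson) intervals, and the limit for a count of 0 is 3 cells of the total. Both cover counting error only. Thinning to 2000 UMIs left out 138 shallower cells. Promoters and positions came from RefSeq (GRCm38.p6) and GENCODE M21 (GRCm38). The script was tested on simulated data. Named genes are the 9 members, the 3 genes most like each, the pathway genes called by edgeR (there were none) and the pathway gene with the most UMIs in each role. The receptor genes Il1r1, Il1r2, Il1rl2 and Il18rap were named after their values were seen. The members and lists were chosen with earlier results of these data known.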

Additional observations from a re-analysis of the deposited data

Results flagged for a closer look

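Hashtags HT6 and HT7 carried signal in 1128 and 1174 cells that the labels assign to no sample, so these cells entered no comparison. A count of 0 allows levels of up to 0.168 CPM in cells carrying HT6 and 0.149 CPM in those carrying HT7, and each member was above that level in both, except Il1a with HT7 (2 UMIs, 0.0992 CPM). In cells carrying HT6 the levels were 0.391 CPM for Il1a, 8.05 for Il1b, 5.37 for Il18, 1.73 for Il33, 34.9 for Il1f6, 79.8 for Il1rn, 2.96 for Nlrp3, 102 for Pycard and 108 for Casp1. In cells carrying HT7 they were 7.79 CPM for Il1b, 3.72 for Il18, 1.04 for Il33, 17.3 for Il1f6, 93.6 for Il1rn, 2.93 for Nlrp3, 109 for Pycard and 120 for Casp1.

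For 3 members the samples of the 2 treatments did not overlap in either of 2 classes and moved in opposite directions, a difference that was not tested. Between 30.4% and 40.5% of all genes tested in a class did not overlap either, in about equal numbers up and down, so nothing particular to the members is read from it. The log2 fold change of Il1rn was 0.44 in tuft-like and -0.38 in transit-amplifying-like cells. That of Casp1 was 0.46 in immature mTEC-like and 0.73 in dendritic-like cells, and -0.11 in keratinocyte-like and -0.24 in microfold-like cells. That of Il18 was 0.99 in keratinocyte-like and -0.48 in neuroendocrine-like cells. A single cell held 21 of the keratinocyte-like Il18 UMIs of spermidine sample 1. None of these values passed an adjusted p of 0.05 in edgeR.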

How the results depend on the processing

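No member was called in the edgeR fits, against 1 with DESeq2 (Il1a over all mTEC classes, log2 fold change 3.06), 3 with no filter on low counts (Il1a over all mTEC classes, adjusted p = 2.97e-07, Il1f6 in keratinocyte-like cells, adjusted p = 0.0488, and Il18 in transit-amplifying-like cells, adjusted p = 0.00182) and between 0 and 1 when 1 hashed sample was left out. The genes called in all, 6, became 952 with DESeq2, 5542 with no filter on low counts, 19 with 6 hashtags considered, 1104 with counts capped at 10 per cell, 15 with a 10% mitochondrial limit, and 250 to 708 when 1 sample was left out, so adjusted p-values depend strongly on these settings. Pathway genes, none called in these fits, gave 26 calls with no filter on low counts, 5 with capped counts, 3 with DESeq2, 1 with a replicate block and 1 to 3 when 1 sample was left out. Fitted with a replicate block, 189 genes and no member were called. The correlation of same-numbered deviations was 0.011 in Aire-stage-like cells, 0.013 in tuft-like cells and -0.0050 over all mTEC classes. With 2 samples per group, these values cannot decide whether same-numbered samples were paired. The causes of these shifts were not tested.

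The log2 fold change of Il1a stayed above 0 in 12 of 12 settings, at 2.37 to 3.79 in Aire-stage-like cells and 2.18 to 3.49 over all mTEC classes, and that of Il1b in Aire-stage-like cells at 1.46 to 2.61. Of the refitted member values, 258 kept direction and side of the threshold, 4 gained a call and 23 changed sign. Under a margin rule for hashtags, Il1rn in Aire-stage-like cells stood at 0.0023, Il18 at 0.096 in tuft-like cells and 0.079 over all mTEC classes, and Nlrp3 over all mTEC classes at 0.15. With 6 hashtags considered, Nlrp3 over all mTEC classes stood at 0.19 and Il1b in microfold-like cells at 0.43. With capped counts, Il1f6 over all mTEC classes stood at -0.25 and Nlrp3 at 0.0054, and with the 10% mitochondrial limit Nlrp3 stood at 0.014. In keratinocyte-like cells, Il1f6 stood at 0.048 with capped counts, and leaving out 1 sample gave 0.45 to 0.90 for Il1f6 and 0.52 to 1.93 for Il18. Leaving out 1 sample gave, in Aire-stage-like cells, -0.53 to 0.77 for Il1f6, -0.12 to 0.028 for Il1rn and -0.13 to 0.094 for Casp1. In tuft-like cells it gave -0.40 to 0.026 for Il18, -0.17 to 0.0064 for Pycard and -0.017 to 0.36 for Casp1. Over all mTEC classes it gave -0.14 to 0.40 for Il33, -0.50 to 0.34 for Nlrp3 and -0.067 to 0.0099 for Pycard. For Il1b it gave -0.19 to 1.42 in dendritic-like cells and -0.78 to 0.43 in microfold-like cells.

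The class with the highest level stayed the same for 7 of 9 members at a Leiden resolution of 0.5 and for 8 of 9 with all kept barcodes included. At that resolution 1038 cells had no class name, the enterocyte- or hepatocyte-like class was not found and the Aire-stage-like class held 591 cells in place of 1328. Car10 was among the 10 leading genes of the cluster with that name, and Klk1b11 and Ttr were among those of another cluster. The levels are thus those of a different set of cells, near in number to the 605 of the Car10-led cluster above. Their means were 7.31 CPM for Il1a, 7.36 for Il18, 9.70 for Il33, 1.99 for Nlrp3, 114 for Il1rn, 92.1 for Pycard and 106 for Casp1. Il1f6 in keratinocyte-like cells became 387 CPM. Il1a, Il33 and Nlrp3 rest on 161, 224 and 172 UMIs, so low levels in small classes may be missed at this depth.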
